A study of Mus musculus with 12 samples.

Results

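Stem cell niche factors and their receptors were followed here in mouse bone marrow cultures: Cxcl12, Kitl, Angpt1, Vcam1 and Il7 on the ligand and adhesion side, and Cxcr4, Kit, Cd34 and Cd44 on the receptor and surface side. Members were the probe sets whose annotation names exactly 1 gene, and that gene 1 of 10 on the list, and each gene was read from its probe set that was brightest over all arrays. This gave 9 measured genes, from 22 probe sets, among 18193 genes in all; Thpo, the tenth gene of the list, is not analysed here.

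Whole bone marrow from female C57BL/6 mice aged 6 weeks was kept in primary culture, and 4 groups of 3 arrays were made. The c-kit+ 17βE group holds c-kit+ cells (stem cells, by the labels) from cultures given 1 nM 17β-estradiol for 1 week, and the c-kit+ control group holds the same fraction from untreated cultures. The CD44+ 17βE and CD44+ control groups hold CD44+ cells, called stromal cells in the labels, from cultures given the same dose and from untreated cultures. Values are log2 expression levels from Affymetrix arrays, and a level of 1 probe set cannot be set against that of another, so genes are compared only with themselves. No label says that the 3 arrays of a group come from separate animals or cultures, so the p-values measure only the spread between these arrays, which may be technical. With 3 arrays against 3, an exact permutation test of a single gene cannot go below 0.1; the tests given are limma's, fitted over all genes, and "passed" means a Benjamini-Hochberg adjusted p under 0.05.

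Blood-forming stem cells are kept in the marrow by neighbouring cells, chiefly mesenchymal stromal cells around blood vessels. These cells secrete CXCL12, which holds stem cells in place through its receptor CXCR4, and stem cell factor (the Kitl product), which signals through the receptor tyrosine kinase KIT. Angiopoietin-1 (Angpt1) signals through TEK, IL-7 feeds early lymphoid cells, and VCAM-1 binds the α4 integrins of blood cells. CD44 is a hyaluronan receptor found on many marrow cells, and CD34 is a sialomucin of progenitors, vessels and some stromal cells. Estrogen is known to act on both bone and marrow, which is the setting of the treatment.

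The start-site regions of 3 genes that the results below turn on are shown from RefSeq (GRCm38.p6), each with 250 bases before and 50 after the annotated start. They are the promoters of Cxcl12 and Cd34, both lower in c-kit+ than in CD44+ cells, and of Cxcr4, which read higher on estradiol arrays in both fractions without passing the test. Cxcl12 lies at chr6:117168285-117168584 on the plus strand, Cd34 at chr1:194938571-194938870 on the plus strand and Cxcr4 at chr1:128592250-128592549 on the minus strand. Capitals mark GGGCGG (known as the GC box core) and TATAAA (a core promoter element), searched on both strands.
Cxcl12: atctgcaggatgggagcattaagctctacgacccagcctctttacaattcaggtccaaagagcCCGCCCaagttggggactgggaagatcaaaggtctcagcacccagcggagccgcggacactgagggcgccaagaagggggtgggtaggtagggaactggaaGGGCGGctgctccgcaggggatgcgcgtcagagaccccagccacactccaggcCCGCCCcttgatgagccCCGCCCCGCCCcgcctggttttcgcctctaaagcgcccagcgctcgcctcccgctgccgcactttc
Cd34: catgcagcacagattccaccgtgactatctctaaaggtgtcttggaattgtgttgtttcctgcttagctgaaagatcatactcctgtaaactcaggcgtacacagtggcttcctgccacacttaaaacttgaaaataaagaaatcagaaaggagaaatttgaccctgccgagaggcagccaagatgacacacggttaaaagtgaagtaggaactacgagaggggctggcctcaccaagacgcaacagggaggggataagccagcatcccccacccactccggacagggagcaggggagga
Cxcr4: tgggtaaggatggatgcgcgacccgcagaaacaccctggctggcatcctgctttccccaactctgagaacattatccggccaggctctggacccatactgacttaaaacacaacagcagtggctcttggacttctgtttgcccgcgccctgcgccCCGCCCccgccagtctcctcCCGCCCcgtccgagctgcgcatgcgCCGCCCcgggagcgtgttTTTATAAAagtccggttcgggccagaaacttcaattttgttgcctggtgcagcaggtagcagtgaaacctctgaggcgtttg
The Cxcl12 region holds 5 GGGCGG matches, 2 of which overlap each other, and no TATAAA, with 64.7% G and C. The Cd34 region holds neither motif and has 50.0% G and C. The Cxcr4 region holds 3 GGGCGG matches, and its 2 TATAAA matches overlap, since the same letters read on either strand; it has 59.3% G and C. Of the 9 measured genes, 6 have an entry in the table: Cxcl12, Cxcr4, Kitl, Kit, Cd44 and Cd34. GGGCGG stood in 5 of these 6, against 35.7% of all 32851 promoters of the same length, and TATAAA stood in 2, against 13.6%. The full palindrome of an estrogen response element (GGTCA, any 3 bases, then TGACC) stood in 0 of the 6 and in 0.07% of all promoters. These matches describe letters only.

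The labels of the fractions were checked against Kit and Cd44 first. Kit, the gene of the surface marker c-kit, read 3.94, 3.92 and 3.97 on c-kit+ 17βE arrays and 3.96, 4.08 and 3.88 on c-kit+ control arrays. It read 4.09, 3.86 and 3.84 on CD44+ 17βE arrays and 3.79, 4.22 and 4.02 on CD44+ control arrays. The groups overlap throughout and lie at a level near that of probe sets with no matching gene: in these female mice 10 probe sets of 4 Y-linked genes reached up to 3.98. The difference of c-kit+ minus CD44+ cells was 0.01 in estradiol cultures (95% interval -0.25 to 0.27) and -0.04 in control cultures (-0.29 to 0.22). A second Kit probe set read 3.54 to 3.75 on all 12 arrays. The Kit transcript therefore did not mark the arrays labelled c-kit+, and the fractions are called by their labels only.

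Cd44 was bright on every array. It read 12.05, 12.02 and 12.34 on c-kit+ 17βE arrays, 12.03, 11.76 and 12 on c-kit+ control arrays, 12.28, 12.46 and 12.25 on CD44+ 17βE arrays, and 12.28, 12.21 and 11.85 on CD44+ control arrays. The fractions overlapped, with a difference of c-kit+ minus CD44+ of -0.19 in estradiol cultures (95% interval -0.49 to 0.1) and of -0.19 in control cultures (-0.48 to 0.11). Dimmer Cd44 probe sets gave -0.45, -0.02 and -0.11 in estradiol and 0.03, 0.22 and 0.04 in control cultures. The first did not overlap in estradiol cultures (8.12, 8.24 and 8.21, against 8.48, 8.79 and 8.64 on CD44+ arrays). It did not pass (limma adjusted p = 0.0859 over all probe sets).

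Marker lists gave the same fractions a further description. Macrophage markers were bright everywhere: the mean level of 16 such genes was 10.94 to 11.1 on c-kit+ 17βE arrays, 10.9 to 10.99 on c-kit+ control arrays, 10.67 to 10.8 on CD44+ 17βE arrays and 10.53 to 10.7 on CD44+ control arrays. Csf1r, the receptor of a macrophage growth factor, averaged 14.07 ± 0.02 in c-kit+ 17βE, 14.05 ± 0.07 in c-kit+ control, 14.04 ± 0.01 in CD44+ 17βE and 13.99 ± 0.11 in CD44+ control (SD, n = 3 each). Mesenchymal niche markers separated the fractions: the mean of 24 genes was 5.07 to 5.44 on c-kit+ 17βE arrays and 5.11 to 5.3 on c-kit+ control arrays, against 6.13 to 6.71 on CD44+ 17βE arrays and 5.89 to 6.46 on CD44+ control arrays. Of these 24, Adipoq and Lum never read above the Y-linked level. The 19 stem and progenitor markers had means between 6.05 and 6.18 on the c-kit+ arrays and between 6.2 and 6.3 on the CD44+ arrays. Endothelial, lymphoid, mast cell, neutrophil and erythroid or megakaryocyte lists all had means under 6 on all arrays. Single genes of these lists stood apart, such as Pf4 at 11.71 to 12.4. Stab2, an endothelial marker, passed as higher in c-kit+ cells of estradiol (limma adjusted p = 0.0195) and control cultures (0.0482). Csf3r, a neutrophil marker, passed as higher in control cultures (0.0427). Among all genes 0.324% and 0.539% passed as higher in estradiol and control cultures. In such bulk samples fewer cells of a type and less RNA per cell cannot be told apart.

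RNA quality moved with the fraction. The 3' minus 5' signal of Gapdh, which grows with shortened RNA, was 4.23 to 6.17 on c-kit+ 17βE arrays and 4.62 to 5.35 on c-kit+ control arrays, against 3.32 to 4.31 on CD44+ 17βE arrays and 2.83 to 4.14 on CD44+ control arrays. The highest value, 6.17, was that of c-kit+ 17βE replicate 1, which also read 6.31 for the mast cell gene Cpa3 (3.73 to 4.19 on the other 11 arrays). The array least like its group was c-kit+ control replicate 3 (mean r of 0.988 with its group, against 0.992 to 0.997 for the others). Where leaving out either array changed whether a member passed, both results are given. Changes in size alone are not all given.

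**Figure D1:**
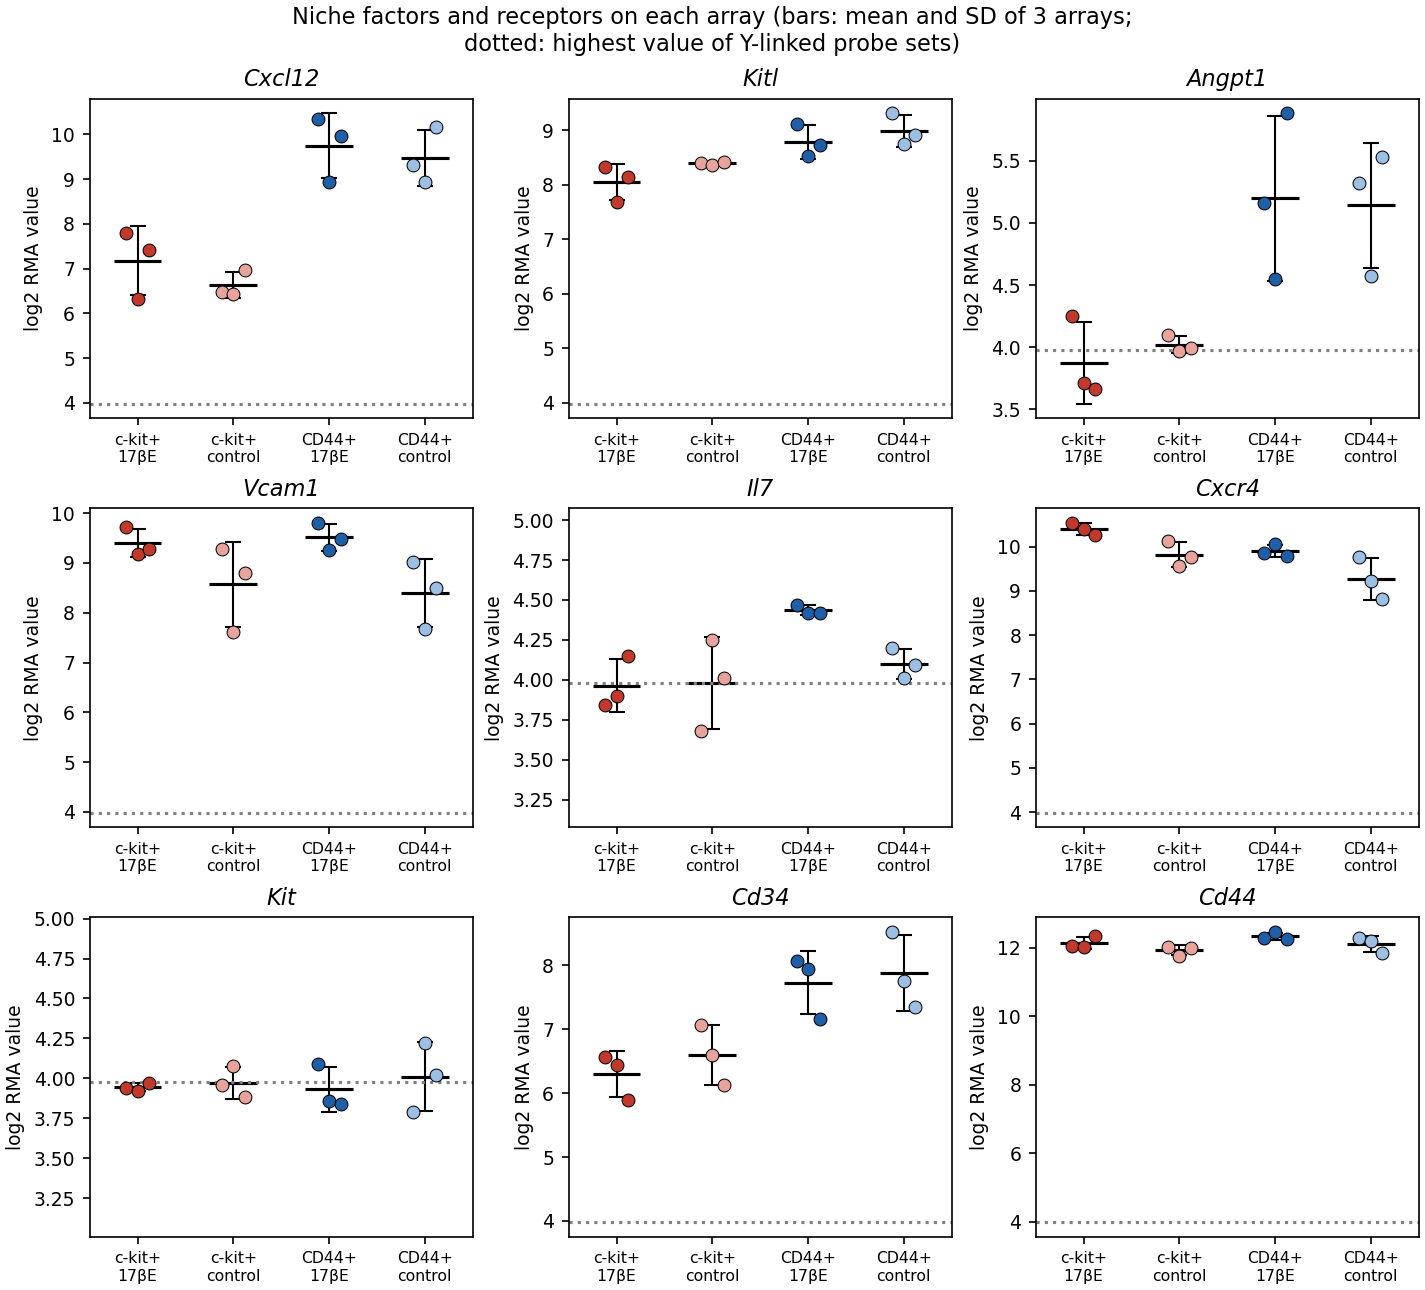
Levels of the 9 measured genes (log2 RMA value, y axis, scaled for each gene) on each of 12 arrays, in 4 groups of 3. Points are arrays, bars the mean and SD, and the dotted line is 3.98, the highest value of the Y-linked probe sets. Cxcl12 sits at 6.31 to 7.8 on c-kit+ arrays and at 8.93 to 10.34 on CD44+ arrays, while Kit lies at the dotted line in all groups.

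Of the 9 genes, Cxcl12 differed most between the fractions. It read 7.8, 6.31 and 7.41 on c-kit+ 17βE arrays, against 10.34, 8.94 and 9.96 on CD44+ 17βE arrays, and 6.48, 6.44 and 6.96 on c-kit+ control arrays, against 9.32, 8.93 and 10.16 on CD44+ control arrays. Every c-kit+ array lay below every CD44+ array. Cxcl12 was lower in c-kit+ cells by 5.95-fold in estradiol cultures (log2 difference -2.57, SE 0.42, limma adjusted p = 0.00341) and by 7.18-fold in control cultures (-2.84, SE 0.42, adjusted p = 0.00257). A second Cxcl12 probe set gave -2.83 and -2.71 in estradiol and control cultures, with adjusted p of 0.0221 and 0.0339 over all probe sets. The third, which reads only 4.55 to 5.14, gave -0.17 and -0.28 and did not pass. Among the c-kit+ arrays the Cxcl12 probe set still stood well above the Y-linked level of 3.98.

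Cd34 was lower in c-kit+ cells as well. Its levels were 6.56, 6.44 and 5.89 on c-kit+ 17βE arrays, against 8.07, 7.94 and 7.16 on CD44+ 17βE arrays, and 7.07, 6.59 and 6.13 on c-kit+ control arrays, against 8.52, 7.76 and 7.35 on CD44+ control arrays. The fractions do not overlap in either culture. In estradiol cultures Cd34 was lower in c-kit+ than in CD44+ cells by 1.43 on the log2 scale (SE 0.32, limma adjusted p = 0.0318). In control cultures the difference was -1.28 (SE 0.32) with an adjusted p of 0.06, which did not pass. That control-culture difference did pass in 5 of 22 alternative settings. Among them were array weights (limma adjusted p = 0.0268), quantile normalization (0.0374), the median-level filter (0.0463) and the replicate block (0.000144). Without c-kit+ 17βE replicate 1 the estradiol-culture value was -1.56 with an adjusted p of 0.0631, and the call was likewise lost without c-kit+ 17βE replicate 2 (0.0946) or 3 (0.134) and without CD44+ 17βE replicate 1 (0.175) or 2 (0.125). It was also lost when every probe set was tested (0.0533) and with median centring (0.0535). With the replicate number as a block over all groups, the estradiol-culture adjusted p of Cd34 was 5.21e-05. Over all genes, the estradiol arrays of the fractions pair by replicate number, and the control arrays do not. Cd34 itself was lowest on replicate 3 in all 4 groups.

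Angpt1 stood near the Y-linked level on c-kit+ arrays and above it on CD44+ arrays. It read 4.25, 3.71 and 3.66 on c-kit+ 17βE arrays, against 5.16, 4.55 and 5.88 on CD44+ 17βE arrays, and 4.1, 3.97 and 3.99 on c-kit+ control arrays, against 5.32, 4.57 and 5.53 on CD44+ control arrays. The fractions did not overlap. Angpt1 was at least 2.18-fold lower in c-kit+ cells of estradiol cultures, a bound with c-kit+ values under 3.98 set to 3.98 (fitted log2 difference -1.33, SE 0.3, limma adjusted p = 0.0327), and its control-culture difference of -1.12 (SE 0.3) had an adjusted p of 0.0809. The control-culture difference passed in 4 of 21 alternative settings. Among them were the replicate block (limma adjusted p = 0.0259) and the fit without CD44+ control replicate 2 (0.0283). The estradiol-culture call was lost without c-kit+ 17βE replicate 2 (adjusted p = 0.153) or 3 (0.127) and without CD44+ 17βE replicate 1 (0.119) or 3 (0.137). It was also lost when every probe set was tested (0.0547), with a trend and robust moderation (0.0747) and with the mean of its probe sets (-0.67, 0.0575). A second Angpt1 probe set, at 3.36 to 3.89 on all arrays, gave -0.01 in estradiol and -0.05 in control cultures.

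Kitl lay lower on all c-kit+ arrays than on the CD44+ arrays of the same treatment, without passing. It read 8.33, 7.69 and 8.15 on c-kit+ 17βE arrays, against 9.12, 8.52 and 8.72 on CD44+ 17βE arrays, and 8.39, 8.36 and 8.42 on c-kit+ control arrays, against 9.31, 8.75 and 8.91 on CD44+ control arrays. The differences were -0.74 (SE 0.19, limma adjusted p = 0.0659) in estradiol and -0.6 (SE 0.19, adjusted p = 0.149) in control cultures. Same-numbered estradiol arrays of the fractions deviate together. With the replicate number as a block over all groups, the estradiol-culture difference of -0.74 passed (SE 0.13, adjusted p = 0.00579). That block also covers the control arrays, whose replicate numbers did not pair between the fractions over all genes. Its smaller SE therefore does not rest on the estradiol arrays alone. The 3 other Kitl probe sets are dim, at 3.24 to 5.3, and none passed.

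Il7 read close to the Y-linked level everywhere. Its levels were 3.84, 3.9 and 4.15 on c-kit+ 17βE arrays, against 4.47, 4.42 and 4.42 on CD44+ 17βE arrays, and 3.68, 4.25 and 4.01 on c-kit+ control arrays, against 4.2, 4.01 and 4.09 on CD44+ control arrays. Only the estradiol arrays did not overlap (difference -0.47, SE 0.14, limma adjusted p = 0.124), and a dimmer second probe set gave 0.09 there.

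Cxcr4, the receptor of CXCL12, had the opposite sign to its ligand. It read 10.54, 10.4 and 10.27 on c-kit+ 17βE arrays, against 9.85, 10.05 and 9.78 on CD44+ 17βE arrays, and 10.12, 9.57 and 9.76 on c-kit+ control arrays, against 9.76, 9.23 and 8.81 on CD44+ control arrays. The estradiol arrays of the fractions did not overlap and the control arrays did. The differences of 0.51 (SE 0.2, limma adjusted p = 0.377) in estradiol and 0.55 (SE 0.2, adjusted p = 0.234) in control cultures did not pass.

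Vcam1 gave no difference between fractions that passed. It differed by -0.13 (95% interval -0.95 to 0.7) in estradiol and by 0.17 (-0.66 to 1.0) in control cultures, and the fractions overlapped in both.

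Across the 9 genes, 3 passed as lower in c-kit+ cells of estradiol cultures (Cxcl12, Cd34 and Angpt1) and 0 as higher, while 2.65% of all genes passed in that comparison (483, of which 424, or 2.33% of all, were lower). In control cultures 1 passed, Cxcl12, against 2.30% of all genes (418, of which 320, or 1.76% of all, were lower). Groups that do not overlap were seen for 6 of 9 in estradiol cultures, 5 of them lower in c-kit+ cells, where 18.2% of all genes were so and 8.15% were so and lower. In control cultures it was 4 of 9, all lower, against 15.7% of all genes in either direction and 8.33% lower. The median difference of the 9 genes was -0.47 in estradiol and -0.19 in control cultures, beside 0.03 and 0.01 for all genes. These 2 comparisons of the fractions share no arrays.

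**Figure D2:**
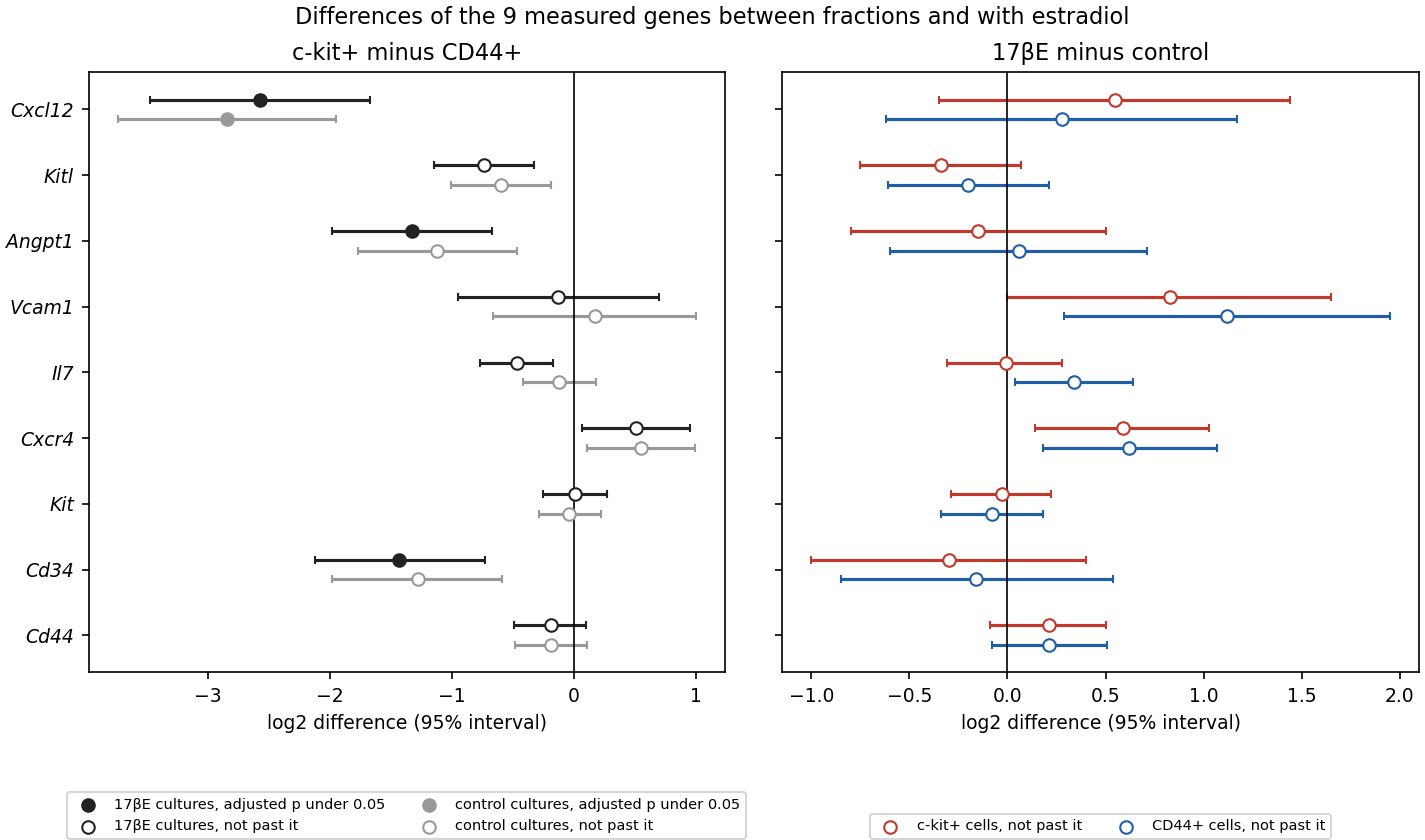
Log2 differences (x axis) of the 9 genes with 95% intervals, c-kit+ minus CD44+ cells on the left (17βE cultures above control cultures) and 17βE minus control on the right (c-kit+ above CD44+ cells). Filled points passed at an adjusted p under 0.05: Cxcl12 in both cultures (-2.57 and -2.84), and Cd34 (-1.43) and Angpt1 (-1.33) in 17βE cultures; every point on the right is open.

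Genes of mesenchymal niche cells were lower in c-kit+ cells together with these. Of the 24 markers, 12 passed as lower in estradiol cultures and 9 in control cultures, 0 as higher. Among all genes 2.33% and 1.76% passed as lower. The median of the markers was -0.48 and -0.41, beside 0.03 and 0.01 for all genes. Col1a2, a collagen I chain, averaged 7.8 ± 0.49 in c-kit+ 17βE, against 11.35 ± 0.53 in CD44+ 17βE, and 7.52 ± 0.58 in c-kit+ control, against 10.89 ± 0.78 in CD44+ control (SD, n = 3 each); it was 11.6-fold lower in estradiol and 10.3-fold lower in control cultures. Prrx1, a mesenchymal transcription factor, was 8.02-fold lower in estradiol (adjusted p = 0.000413) and 6.72-fold lower in control cultures (0.0009). Cdh11, a mesenchymal cadherin, was at least 7.47-fold lower in estradiol and at least 6.1-fold lower in control cultures, with c-kit+ values under 3.98 set to that level. Macrophage markers had the opposite direction: 3 of 16 passed as higher in c-kit+ cells of estradiol cultures (Mertk, C1qb and Mrc1) and 5 in control cultures (these with Fcgr1 and Clec7a, the last named after its values were seen). Among all genes 0.324% and 0.539% passed as higher in estradiol and control cultures. Mertk, a receptor for dying cells, was 1.87-fold higher in estradiol and 2.03-fold higher in control cultures. The part of these markers in the lower Cxcl12, Cd34 and Angpt1 was not tested. With the Gapdh measure of RNA quality as a covariate, added after the data were seen, Cxcl12 and Cd34 passed in both cultures. In estradiol cultures Kitl also passed in that fit (-1.01, limma adjusted p = 0.0305), while Angpt1 did not (0.111). The Gapdh measure moves with the fraction, so this fit cannot tell RNA quality and fraction apart.

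**Figure D3:**
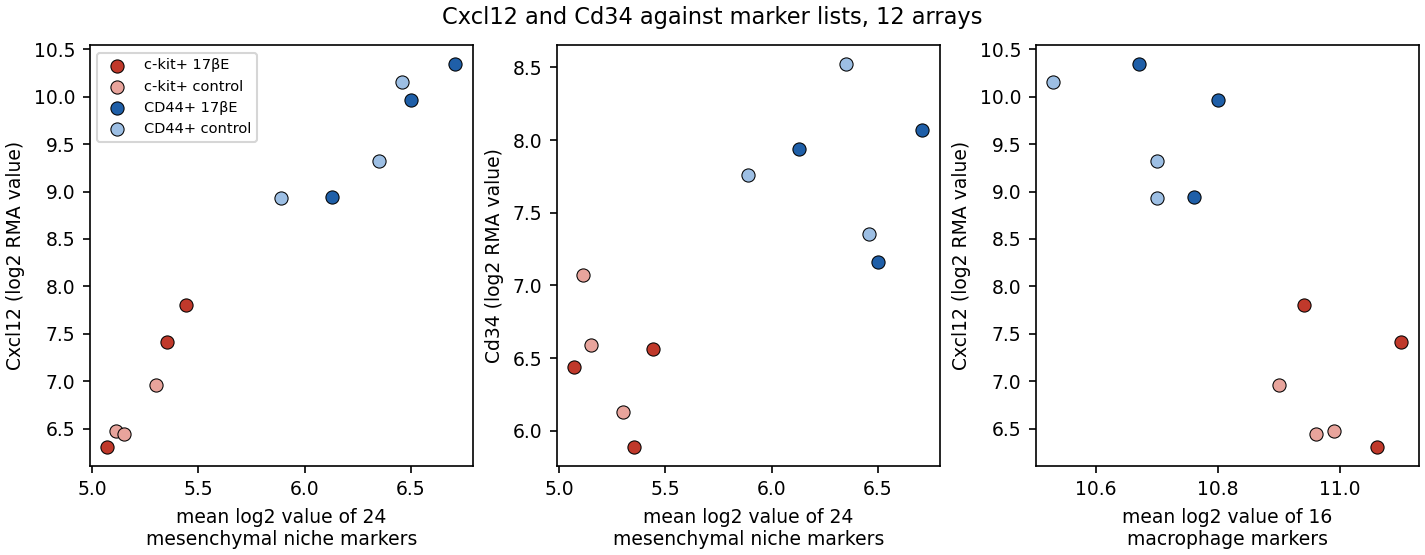
Cxcl12 (left and right) and Cd34 (middle), as log2 RMA values, against the mean log2 value of 24 mesenchymal niche markers (left and middle) or 16 macrophage markers (right) on each of 12 arrays, coloured by group. The fractions form separate clusters on all axes; within each fraction the 3 arrays with the highest mesenchymal marker means also have the 3 highest Cxcl12 levels, which is not so for Cd34.

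Genes with the most similar pattern over the 12 arrays were sought for the 4 members whose SD over arrays was at least 0.5, among 624 genes with that spread. For Cxcl12 they were Ogn (Pearson r = 0.992), Igdcc4 (0.989) and Col3a1 (0.988); within c-kit+ and CD44+ arrays the r of Ogn was 0.95 and 0.95, each over 6 arrays. For Angpt1 they were Pik3r3 (0.955), Itm2a (0.949) and Sgce (0.948), with an r of 0.27 to 0.4 within c-kit+ arrays, where Angpt1 is near the Y-linked level, and 0.85 to 0.95 within CD44+ arrays. Cd34 was most like Gm11545 (0.976), Cd207 (0.975), the gene of langerin, and Klf4 (0.935), and no collagen stood among its 3 nearest genes. Within fractions Cd34 and Cd207 had an r of 0.92 on c-kit+ and 0.89 on CD44+ arrays. Vcam1 was most like Sema4c (0.889), Cd83 (0.877), a marker of activated antigen-presenting cells, and Il17ra (0.826). Among the members themselves, Cxcl12 had an r of 0.901 with Angpt1, 0.711 with Cd34 and 0.184 with Vcam1. The arrays share fraction, treatment and replicate number, so these values are descriptions.

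Replicate numbers ran through several of these genes. Cxcl12, Kitl and Vcam1 each had their lowest value on replicate 2 in all 4 groups, and Cd34 had its lowest on replicate 3 in all 4. This makes 4 of 9 members with the same lowest replicate number in every group, against 10.6% of all genes. Vcam1, for instance, read 9.19, 7.62, 9.27 and 7.67 on replicate 2 of the c-kit+ 17βE, c-kit+ control, CD44+ 17βE and CD44+ control groups. On c-kit+ control arrays the lowest value was a near tie for Kitl (8.39, 8.36 and 8.42) and for Cxcl12 (6.48 and 6.44 on replicates 1 and 2). The second Cxcl12 probe set was lowest on replicate 1 of that group (5.86, against 6.12 on replicate 2). A dimmer Vcam1 probe set was lowest on replicate 3 of CD44+ 17βE (6.59, against 6.62 on replicate 2). What the replicate numbers stand for is not given in the labels.

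**Figure D4:**
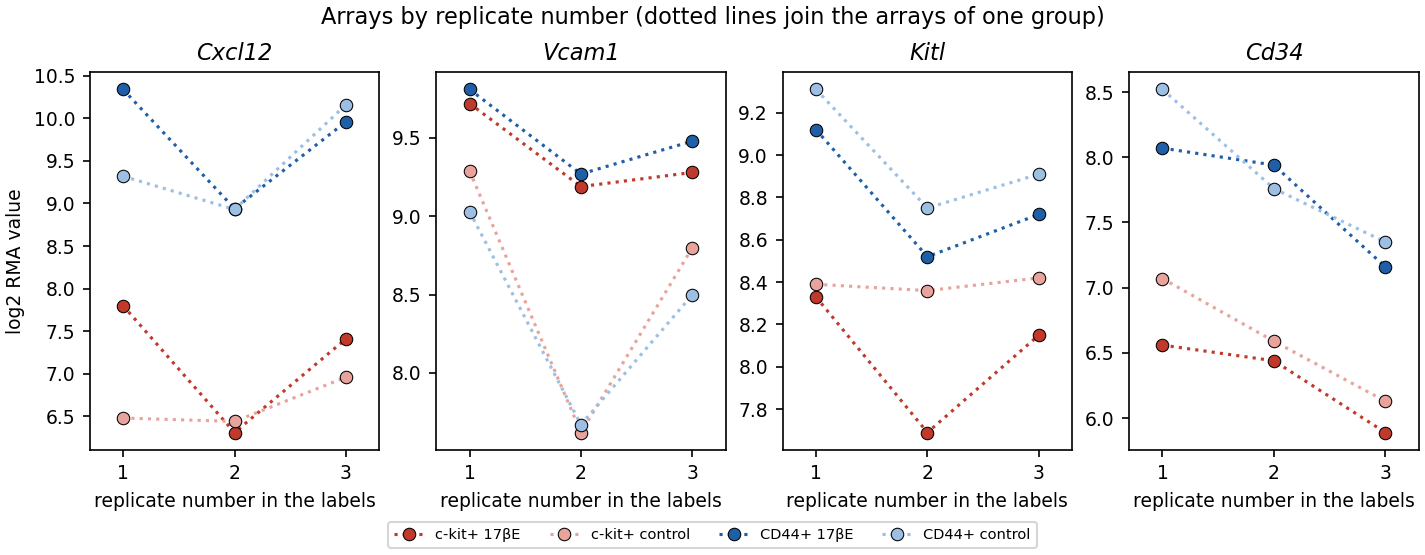
Levels (log2 RMA value, y axis) of Cxcl12, Vcam1, Kitl and Cd34 by the replicate number of the labels (x axis), 1 line of 3 arrays for each of the 4 groups; the lines only join arrays of a group. Cxcl12, Vcam1 and Kitl are lowest on replicate 2 in every group, and Cd34 on replicate 3.

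No member passed with estradiol in either fraction. In c-kit+ cells 0 of 9 passed in limma, against 0.181% of all genes (33, of which 32 higher), and 1 of 9 had an unadjusted p under 0.05, beside 814 of all 18193 genes (4.47%). In CD44+ cells 0 of 9 passed, against 0.291% of all genes (53, of which 51 higher), and 3 of 9 had an unadjusted p under 0.05, beside 978 of all (5.38%). Groups that do not overlap were seen for 2 of 9 in c-kit+ cells (7.81% of all genes) and for 3 of 9 in CD44+ cells (12.7%). The median difference of the 9 genes was -0.01 in c-kit+ and 0.21 in CD44+ cells, beside 0.02 and 0.01 for all genes.

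Vcam1 had the largest estradiol difference of the 9 genes in each fraction. On c-kit+ arrays it read 9.72, 9.19 and 9.28 with estradiol, against 9.29, 7.62 and 8.8 in control cultures. On CD44+ arrays it read 9.81, 9.27 and 9.48 with estradiol, against 9.03, 7.67 and 8.5 in control cultures. The groups overlap in c-kit+ cells and do not in CD44+ cells. The difference was 0.83 in c-kit+ cells (SE 0.38, 95% interval 0.0 to 1.65, limma adjusted p = 0.999) and 1.12, or 2.18-fold, in CD44+ cells (SE 0.38, 95% interval 0.29 to 1.95, adjusted p = 0.59). Same-numbered CD44+ arrays deviate together (r of 0.303, 0.368 and 0.322). With the replicate number as a block over all groups, Vcam1 passed in CD44+ cells (1.12, SE 0.21, adjusted p = 0.042). That fit calls 101 genes in place of 53. It also covers c-kit+ arrays, where same-numbered arrays of the treatments had an r of 0.345, 0.092 and 0.253. The second of these is just under the 0.1 set for pairing. The SE of that fit does not rest on the CD44+ arrays alone. The 2 dimmer Vcam1 probe sets gave 0.29 and 0.24 in c-kit+ cells and 0.39 and 0.15 in CD44+ cells.

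Cxcr4 lay higher on all estradiol arrays of both fractions than on the control arrays of the same fraction. In c-kit+ cells the values given above made a difference of 0.59, or 1.5-fold (SE 0.2, 95% interval 0.14 to 1.03, unadjusted p = 0.0132, limma adjusted p = 0.74). In CD44+ cells the difference was 0.62, or 1.54-fold (SE 0.2, 95% interval 0.18 to 1.07, unadjusted p = 0.00911, adjusted p = 0.529). Neither passed over all genes.

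The remaining niche factors and surface genes gave smaller differences. Cxcl12 had 0.55 in c-kit+ cells (95% interval -0.35 to 1.44) and 0.28 in CD44+ cells (-0.62 to 1.17), and the estradiol and control arrays overlapped in both fractions. Its c-kit+ value was 0.23 without c-kit+ 17βE replicate 1, which holds the highest Cxcl12 level of that fraction. Kitl had -0.34 in c-kit+ cells (95% interval -0.75 to 0.07), where every estradiol array lay below every control array, and -0.2 in CD44+ cells (-0.61 to 0.21), where they overlapped. Il7 had -0.01 in c-kit+ cells (-0.31 to 0.28) and 0.34 in CD44+ cells (0.04 to 0.64, limma adjusted p = 0.835).

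Angpt1 had -0.15 in c-kit+ (95% interval -0.8 to 0.5) and 0.06 in CD44+ cells (-0.6 to 0.71). Cd34 had -0.3 in c-kit+ (-1.0 to 0.4) and -0.16 in CD44+ cells (-0.85 to 0.54). Kit stayed at the Y-linked level, with -0.03 in c-kit+ (-0.29 to 0.22) and -0.08 in CD44+ cells (-0.34 to 0.18). Cd44 had 0.21 in both, with intervals of -0.09 to 0.5 in c-kit+ and -0.08 to 0.51 in CD44+ cells. A dimmer Cd44 probe set read 8.48, 8.79 and 8.64 on CD44+ 17βE arrays, against 8.19, 8.23 and 7.92 on CD44+ control arrays, a difference of 0.52 with an unadjusted p of 0.00048 and a limma adjusted p of 0.127 over all probe sets. It was singled out after its values were seen.

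The estradiol effects of the fractions were compared by their difference, c-kit+ minus CD44+. In limma 0 of 9 members passed (0% of all genes), and 0 had an unadjusted p under 0.05, beside 296 of 18193 genes. The smallest p among members was that of Il7, with a difference of effects of -0.35 (95% interval -0.77 to 0.07, unadjusted p = 0.093). For Vcam1 it was -0.29 (-1.47 to 0.88), for Cxcr4 -0.04 (-0.66 to 0.58) and for Cxcl12 0.27 (-1.0 to 1.54). The intervals of Vcam1, Cxcl12, Angpt1 (-1.13 to 0.71) and Cd34 (-1.13 to 0.84) reach past 1 on the log2 scale in at least 1 direction. Differences of that size were therefore not excluded by these arrays. The comparisons of estradiol and of the fractions share arrays, so a gene's values in them are not independent.

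The binding partners of the members were described from a list of 25 genes, of which 20 were measured. Itgb7, the integrin β7 chain that pairs with α4 and binds VCAM-1 and MAdCAM-1, passed as lower in c-kit+ cells in both cultures and was the only partner to pass in any comparison. It read 7.18, 7.38 and 6.93 on c-kit+ 17βE arrays, against 8.69, 8.52 and 8.43 on CD44+ 17βE arrays, and 6.79, 6.6 and 6.68 on c-kit+ control arrays, against 8.53, 8.32 and 8.22 on CD44+ control arrays. It was 2.61-fold lower in estradiol (limma adjusted p = 0.000224) and 3.18-fold lower in control cultures (0.000103). Itga4, the α4 chain itself, differed by -0.25 and -0.24 in estradiol and control cultures, without passing. Itgb1, the β1 chain, averaged 10.41 ± 0.66 in c-kit+ 17βE, 10.78 ± 1.4 in c-kit+ control, 11.14 ± 0.31 in CD44+ 17βE and 10.62 ± 0.4 in CD44+ control (SD, n = 3 each); c-kit+ control replicate 3 alone read 12.4.

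The receptor Tek of angiopoietin-1 and the second CXCL12 receptor Ackr3 never read above the Y-linked level. Il7r, the IL-7 receptor chain, averaged 10.84 ± 0.25 in c-kit+ 17βE, 10.53 ± 0.18 in c-kit+ control, 11.18 ± 0.15 in CD44+ 17βE and 10.79 ± 0.24 in CD44+ control (SD, n = 3 each). Its estradiol differences of 0.31 in c-kit+ and 0.39 in CD44+ cells did not pass (limma adjusted p = 0.999 and 0.818). Has2, a hyaluronan synthase that makes the ligand of CD44, differed by -0.39 and -0.33 between fractions in estradiol and control cultures and did not pass; Has1 and Has3 did not pass either.

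Other secreted niche factors passed as lower in c-kit+ cells for 3 of 19 measured genes in estradiol cultures and 2 of 19 in control cultures, 0 as higher. Among all genes 2.33% and 1.76% passed as lower. Slit2, a guidance ligand, was 4.38-fold lower in estradiol cultures (limma adjusted p = 0.00999); its control-culture difference of -1.58 had an adjusted p of 0.0637. Ccn3, a matricellular protein, was at least 3.21-fold lower in estradiol cultures, a bound of the same kind. Grem1, a BMP antagonist, was 2.14-fold lower in estradiol and 2.29-fold lower in control cultures, and Ptn (pleiotrophin) was 1.45-fold lower in control cultures.

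Proteases and RGS proteins, which cleave CXCL12 or damp its receptor, passed as lower in 3 of 12 measured genes in estradiol and 2 of 12 in control cultures. Among all genes 2.33% and 1.76% passed as lower. Mmp2, a gelatinase able to cleave CXCL12, was 4.74-fold lower in c-kit+ cells of estradiol cultures (limma adjusted p = 0.000431) and 4.22-fold lower in control cultures (0.0009). Rgs16, which speeds the shut-off of G protein signals, was 2.53-fold lower in estradiol and 2.12-fold lower in control cultures, and Ctsk, cathepsin K, was 1.94-fold lower in estradiol cultures. Rgs2 had the opposite sign, at 0.65 in both cultures, without passing (limma adjusted p = 0.113 in estradiol and 0.105 in control cultures). The list median was 0.0 in estradiol and -0.11 in control cultures, beside 0.03 and 0.01 for all genes. Of the 24 signalling genes downstream of the receptors, 0 passed in any comparison in limma; in estradiol cultures Cbl, which marks KIT for degradation, came nearest, with 0.62 (adjusted p = 0.0938).

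Of the 19 stem and progenitor markers measured, 1 passed as lower in c-kit+ cells in each culture, and 1 as higher in control cultures. Among all genes 2.33% and 1.76% passed as lower in estradiol and control cultures, and 0.539% as higher in control cultures. Hoxa9, a homeobox gene of progenitors, averaged 5.98 ± 0.17 in c-kit+ 17βE, against 8.96 ± 0.37 in CD44+ 17βE, and 6.03 ± 0.67 in c-kit+ control, against 8.23 ± 0.7 in CD44+ control (SD, n = 3 each). It was 7.89-fold lower in c-kit+ cells of estradiol cultures (limma adjusted p = 0.000479) and 4.62-fold lower in control cultures (0.00396). Lmo2, a transcriptional partner of blood progenitors, was 1.67-fold higher in c-kit+ cells of control cultures (0.0165).

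In the estradiol comparisons 0 of the 187 different genes of the 12 lists passed in limma. At an unadjusted p under 0.05 stood 9 of them in c-kit+ cells (814 of all 18193 genes) and 14 in CD44+ cells (978 of all). Mmp14, a membrane metalloprotease, had 0.72 in c-kit+ (SE 0.19, adjusted p = 0.313) and 0.69 in CD44+ cells (SE 0.19, adjusted p = 0.292). Cd14, a macrophage surface gene, had 0.38 in c-kit+ (adjusted p = 0.422) and 0.48 in CD44+ cells (0.125). For the difference of the effects 0 of the 187 passed, and 4 had an unadjusted p under 0.05.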

How the data were processed

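Expression was measured on 12 Affymetrix arrays, 3 per group. Per the labels' protocols, total RNA was amplified in 2 cycles and labelled with biotin. The authors' deposited values are log2 levels; per the submitters' processing notes they were made with RMA, with no version stated in the sources used here. They ran from 2.47 to 14.81, with array medians of 4.75 to 4.84 and no value missing. With 3 arrays a group, precision is limited by their number.

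The platform annotation gave probe sets their genes. Of 45101, 64 were controls, 34945 named 1 gene and 932 named several; a gene was read from its brightest probe set. No filter was applied. limma 3.58.1 in R 4.3.3 was fitted with 1 mean per group over 12 arrays, empirical Bayes moderation and Benjamini-Hochberg adjustment over 18193 genes, and was tested on simulated data with known changes. Summaries used pandas 2.3.3 in Python 3.11.15, and plots matplotlib 3.10.9. The members and lists were chosen with earlier results of these data known. Named list genes are those with the smallest p in each list, up to 4 for the fractions and 2 for estradiol, and direct partners of members.

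The replicate block gave all groups a shared replicate effect, whether or not their replicate numbers paired. Replicate numbers were taken to pair arrays where same-numbered arrays' deviations from the group mean correlate above 0.1 for all 3 numbers. This held for CD44+ 17βE with CD44+ control (0.303, 0.368 and 0.322) and c-kit+ 17βE with CD44+ 17βE arrays (0.447, 0.192 and 0.312), and not for c-kit+ 17βE with c-kit+ control (0.345, 0.092 and 0.253) or c-kit+ control with CD44+ control arrays (0.175, 0.122 and -0.208). The alternatives were a fit to every probe set, averaging each gene's probe sets, a filter that keeps genes with at least the median level, median centring, quantile normalization, array weights, robust moderation with a trend, the replicate block, the compared groups alone, leaving out each array and, added after the data were seen, the Gapdh measure as a covariate and leaving out arrays of groups not compared.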

Additional observations from a re-analysis of the deposited data

How the results depend on the processing

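The count of members that passed stayed at 0 under all alternatives for estradiol in c-kit+ cells and for the difference of effects. For estradiol in CD44+ cells it was 0, but 3 with array weights (Vcam1, Cxcr4 and Il7) and 1 with the replicate block. For c-kit+ minus CD44+ in control cultures it was 1, but 2 over genes at or above the median level, 2 with quantile normalization, 2 with the Gapdh covariate, 3 with array weights and 4 with the replicate block, and 1 to 2 when arrays were left out in turn. In estradiol cultures it was 3, but 1 over every probe set, 2 when probe sets were averaged, 2 over genes at or above the median level, 2 with median centring, 2 with trend and robust moderation, 4 with the replicate block, 5 with array weights and 5 with the compared groups alone, and 1 to 4 when arrays were left out. The median-level filter left Angpt1 out before testing, so that fit could not call it. No called difference changed sign. Cxcl12 passed in all 22 settings of each comparison of the fractions, at -2.98 to -1.86 in estradiol and -3.11 to -1.94 in control cultures, the smallest sizes being those of the mean of its probe sets. In estradiol cultures Cd34 passed in 15 of 22 and Angpt1 in 13 of 21 settings. These settings include leaving out control arrays, which enter that comparison only through the shared spread. The calls lost on leaving out compared arrays are given above. Over all genes, array weights called 1405 genes for estradiol in CD44+ cells, 55 in c-kit+ cells, and 779 and 1058 between fractions in estradiol and control cultures, against 53, 33, 483 and 418. The replicate block called 62 for estradiol in c-kit+ cells and 693 between fractions in control cultures; every probe set gave 87 for estradiol in CD44+ cells, and the compared groups alone 2 for estradiol in c-kit+ cells and 196 between fractions in control cultures. The median-level filter gave 250 between fractions in estradiol and 279 in control cultures, the Gapdh covariate 253 in control cultures. Leaving out arrays gave, for estradiol in c-kit+ cells, 10 (without c-kit+ 17βE replicate 2) to 45, and in CD44+ cells 22 (without CD44+ 17βE replicate 3) to 97 (without c-kit+ control replicate 3). Between fractions it gave 269 (without c-kit+ 17βE replicate 2) to 594 in estradiol and 221 (without CD44+ control replicate 3) to 456 in control cultures. Where replicate numbers pair the arrays, the replicate block changed no call of a member other than those of Vcam1 and Kitl given above. The causes were not tested. Kit, Il7 and c-kit+ Angpt1 lie near the Y-linked level, which limits what can be seen of them.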
